A study of Mus musculus with 14 samples.

Results

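Among the H3K4me3 regions mapped in mouse cerebral cortex, 1468 were wide and carried no gene in the deposited annotation. They were chosen by annotation, width and position only: no assigned gene, an end at least 1500 bp beyond the start, and a start at or beyond base 6500000 of the chromosome in the mm9 build. They were 1468 of 14881 regions with values. Of the 3493 regions without a gene, 1511 had that width, and 43 of those started nearer the chromosome's first base and were left out. The same width and start limits left 6572 gene-carrying regions, against which the 1468 are set below.

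Trimethylation of lysine 4 on histone H3 is laid down by methyltransferases of the SET1 and MLL type around the start sites of active and poised genes, most of all at CpG-rich promoters. Wide stretches of the mark usually cover such a promoter, so a wide region with no gene can cover a start site that an annotation misses, such as an alternative start, a long noncoding RNA or the host transcript of a microRNA. It can also cover repeated sequence. In adult cortex the mark is read from neurons and glia together, and in such tissue fewer marked cells cannot be told apart from less mark per cell.

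The mice were C57BL/6J and 3 months old. The groups were postnatal nicotine (4 libraries), postnatal saccharin (4 libraries), pre- and postnatal nicotine (3 libraries) and pre- and postnatal saccharin (3 libraries), with saccharin, the sweetener, as the control for nicotine. The labels describe a solution given to pregnant mice from conception, its removal at day 21 of the offspring and an end at day 90, and they describe no separate course for the postnatal group. They give neither a nicotine dose nor a sex, and they do not say whether libraries came from separate animals, so every p-value measures the spread between libraries, which may be technical.

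Signal is the authors' read count per region after adjustment with edgeR, on a scale of its own in each of the 2 exposures, so levels are compared only within an exposure. Postnatal libraries 1 and 2 of each group, and likewise 3 and 4, differed by 0.983 to 1.08 times the variance that counting gives, against 1.94 to 2.50 times for the other pairs of the group. Each such pair was therefore averaged and counted as 1 sample, which leaves 2 against 2 postnatal samples and 3 against 3 pre- and postnatal samples. Postnatal values are given below for libraries 1 and 2 first and libraries 3 and 4 second. Pre- and postnatal nicotine values are given for libraries 1, 3 and 4, and pre- and postnatal saccharin values for libraries 1, 2 and 3. Summed signal ran from 1445810 to 2480400 per sample, and the depth in reads is unknown. Of the marker genes of the tissue, 6 of 10 neuronal and 4 of 5 oligodendrocyte genes had a region, but 0 of 4 astrocyte and 0 of 3 microglial genes did. A region was also found for 2 of 3 endothelial genes, for 2 of 4 genes of choroid plexus and striatum, Drd1 and Ppp1r1b, and for 1 of 5 genes of other tissues, Myod1.

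The deposited coordinates could not be read as sequence, since no genome of their build was used. The genes around each member were therefore found by order along the chromosome alone, with RefSeq genes of GRCm38.p6 lying between the nearest gene-carrying region on either side. Of the 1468 members, 1464 had flanking genes in order. Between the flanks, 141 members had no protein-coding gene without a region of its own, 420 had 1, 376 had 2 and 527 had 3 or more. For comparison, 6553 wide gene-carrying regions were hidden in turn. In 2356 of these exactly 1 such gene lay between the flanks, and in 2331 it was the region's own (98.9%). This share was high by design. A hidden region's own gene was kept in the list, while other genes with a region were left out. The share thus does not measure how well gene order finds an owner. It also starts from genes known to carry a region, so for a member the order names neighbours and not an owner. The RefSeq table is not complete, and genes were placed by their midpoint. A count of no gene means that no gene without a region of its own is listed there. Below, protein-coding genes between the flanks, and an only gene between them, are counted among such genes alone.

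Of the 141 members with no such protein-coding gene between the flanks, 107 had at least 1 listed long noncoding RNA there, 23 had at least 1 microRNA gene and 29 had neither. The microRNA genes included broadly expressed families with known work in brain. The let-7 family holds back growth and proliferation genes, the miR-17 to miR-92 cluster acts in neural progenitors, and miR-132 and miR-212 are induced by neuronal activity and act on dendrites and synapses. Their mature sequences, from RefSeq (GRCm38.p6), are shown because they group these members by shared seed, bases 2 to 8, which is printed in capitals. Of 36 microRNA genes between these flanks, 32 had a mature sequence, and several well-known arms follow with the flanking genes of their member.
The let-7 seed, Ppm1h to Mon2 (let-7i) and Zfp169 to Ptpdc1 (the others):
let-7i-5p: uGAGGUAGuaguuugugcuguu
let-7a-5p: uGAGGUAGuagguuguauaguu
let-7f-5p: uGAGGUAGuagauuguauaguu
let-7d-5p: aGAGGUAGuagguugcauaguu
The miR-17 cluster, with 4 seeds among 6 arms, Slitrk5 to Gpc5:
miR-17-5p: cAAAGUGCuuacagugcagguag
miR-20a-5p: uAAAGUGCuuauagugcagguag
miR-18a-5p: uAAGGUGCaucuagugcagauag
miR-19a-3p: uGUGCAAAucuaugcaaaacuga
miR-19b-3p: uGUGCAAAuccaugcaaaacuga
miR-92a-3p: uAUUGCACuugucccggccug
The miR-132 seed, Hic1 to Ovca2:
miR-132-3p: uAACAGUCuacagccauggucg
miR-212-3p: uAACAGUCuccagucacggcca

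The member between Slitrk5 and Gpc5, with the miR-17 cluster between the same flanks, lay at chr14:115439270-115442071. It held 559 and 444 signal in postnatal nicotine, against 469 and 442 in postnatal saccharin, and 314, 246 and 248 in pre- and postnatal nicotine, against 279, 270 and 243 in pre- and postnatal saccharin. The groups overlapped in both exposures. Its postnatal signal per kb, 179 ± 29.1 in nicotine and 163 ± 7.01 in saccharin (SD, n = 2 samples each), stood above the median member in every sample.

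These let-7i and let-7a members were close to each other in level. The let-7i member, chr10:122421919-122424086, held 302 and 299 in postnatal nicotine, against 290 and 268 in saccharin. The member between Zfp169 and Ptpdc1, chr13:48640345-48642302, with let-7a-1, let-7d and let-7f-1 between its flanks, held 273 and 271 in nicotine, against 249 and 249 in saccharin. In both members the postnatal nicotine samples lay above the saccharin samples, by 0.11 ± 0.11 and 0.13 ± 0.11 on the log2 scale (SE), and limma's adjusted p was 1.00 for each. In the pre- and postnatal exposure the let-7i member held 165, 159 and 187 in nicotine, against 171, 158 and 177 in saccharin, and the groups overlapped.

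The member between Hic1 and Ovca2, chr11:74985564-74988206, had Mir132 and Mir212 between its flanks and was weaker. It held 132 and 126 in postnatal nicotine, against 157 and 128 in postnatal saccharin, a signal per kb of 48.9 ± 1.57 against 53.9 ± 7.74. With exposure before and after birth it held 98.5, 152 and 94.2 in nicotine, against 78.1, 96.7 and 85.9 in saccharin, which overlapped, with limma's log2 difference at 0.37 ± 0.20 (adjusted p = 0.987). Its edge lay 2516 bp from the region assigned to Hic1, a transcriptional repressor gene. The member between Zfat and Khdrbs3, chr15:68193445-68195759, with Mir30b and Mir30d between the flanks, was stronger, at 423 and 397 in postnatal nicotine against 407 and 343 in postnatal saccharin.

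Mir124a-3, a copy of the gene for the neuronal microRNA miR-124, lay between the flanks of chr2:180627010-180629774, Bhlhe23 and Ythdf1. That member held 184 and 212 in postnatal nicotine, against 198 and 174 in saccharin. In the pre- and postnatal exposure it held 103, 68.1 and 86.4 in nicotine, against 87.5, 133 and 134 in saccharin. The nicotine samples were mostly the lower ones there, with 1 overlap, and the log2 difference of -0.45 ± 0.21 had an adjusted p of 0.987 by limma. The member between Jak1 and Ak4, chr4:101027599-101030590, had Mir101a between its flanks and stood at 103 ± 1.90 signal per kb in postnatal nicotine and 95.8 ± 5.05 in postnatal saccharin.

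Some members had no listed microRNA, and no listed protein-coding gene without a region of its own, between the flanks. The 3 strongest of these by postnatal saccharin signal per kb stood above the median wide gene-carrying region. chr6:90936922-90939051, between Iqsec1 and Nup210, held 444 and 390 in postnatal nicotine, against 450 and 401 in postnatal saccharin. chr5:88993227-88995612, between Utp3 and Rufy3, an endosomal adaptor gene of neurons, held 535 and 513 in nicotine, against 493 and 454 in saccharin. chr11:104329537-104331538, between Kansl1 and Cdc27, a gene of the anaphase-promoting complex, held 402 and 370 in nicotine, against 394 and 389 in saccharin. Nicotine samples lay above saccharin samples in the member beside Utp3, by 0.15 on the log2 scale, and overlapped them in the other 2, with a limma adjusted p of 1.00 for each.

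Exactly 1 protein-coding gene without a region lay between the flanks of 420 members, naming 392 genes, and 316 of these members were the only region without a gene in their interval. The strongest of the 316 by postnatal saccharin signal per kb had Dbpht2, Arfgef1, Ktn1, Ankrd1, Marchf8, Larp1b, Fbrs and Galnt15 between their flanks. Arfgef1 encodes a guanine nucleotide exchange factor of the Golgi, and Ktn1 the kinesin-binding protein kinectin. The Arfgef1 interval's member, chr1:10221662-10223926, held 516 and 561 in postnatal nicotine, against 525 and 457 in saccharin. The Ktn1 interval's member, chr14:48268215-48270146, held 391 and 418 in nicotine, against 386 and 356 in saccharin. The groups overlapped in the Arfgef1 interval and stood apart in the Ktn1 interval, by 0.13 ± 0.11 on the log2 scale (limma adjusted p = 1.00).

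The named genes differ in the sequence upstream of their start. RefSeq promoters (GRCm38.p6) are shown for 3 of them, 250 bases up to the start, in the gene's own direction, with every CpG in capitals, because CpG-rich promoters are where the mark is usually found. Larp1b codes for an RNA-binding protein, Ankrd1 for an ankyrin repeat protein of muscle, and Dbpht2 is a gene of unclear function in the interval of a member described below.
Larp1b: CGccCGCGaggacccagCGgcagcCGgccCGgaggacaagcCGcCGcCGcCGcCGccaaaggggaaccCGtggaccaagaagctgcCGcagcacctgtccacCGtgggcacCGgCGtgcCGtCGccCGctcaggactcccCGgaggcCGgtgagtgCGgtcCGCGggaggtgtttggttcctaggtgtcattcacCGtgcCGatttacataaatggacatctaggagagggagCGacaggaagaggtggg
Ankrd1: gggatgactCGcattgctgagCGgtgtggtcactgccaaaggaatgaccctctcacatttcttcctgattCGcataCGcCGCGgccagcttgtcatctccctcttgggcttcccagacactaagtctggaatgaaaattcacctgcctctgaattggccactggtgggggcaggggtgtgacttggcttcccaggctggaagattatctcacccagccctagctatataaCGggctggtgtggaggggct
Dbpht2: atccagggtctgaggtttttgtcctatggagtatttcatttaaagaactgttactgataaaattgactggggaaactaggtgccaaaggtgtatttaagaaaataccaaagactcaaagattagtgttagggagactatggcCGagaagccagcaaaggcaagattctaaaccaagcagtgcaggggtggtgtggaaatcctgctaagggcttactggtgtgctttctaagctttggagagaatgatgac

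The Larp1b window held 27 CpG, a count that 8.56% of the 32851 RefSeq promoter windows reach, and the Marchf8 window also held 27. The Fbrs window held 14, which 29.4% of windows reach, Galnt15 held 8 and Ankrd1 held 7, which 46.3% reach, and Dbpht2 held 1, which 92.1% reach. The members beside them were chosen from the strongest by postnatal saccharin signal per kb. They were therefore alike in level, apart from the Dbpht2 interval, and cannot relate level to CpG count. Postnatal saccharin signal per kb was 183 in the Larp1b interval (chr3:40752788-40755475), 185 in the Marchf8 interval (chr6:116287282-116288959), 182 in the Fbrs interval (chr7:134621814-134623649), 179 in the Galnt15 interval (chr14:32642427-32644874) and 187 in the Ankrd1 interval (chr19:36422083-36424378). In these 5 members the postnatal log2 differences between nicotine and saccharin ran from -0.08 to 0.11, with an adjusted p of 1.00 by limma for each.

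Members with 1 gene between the flanks had a slightly higher median signal per kb than those with none, by 0.11 ± 0.059 on the log2 scale postnatally (SD over 4 samples, higher in 4 of 4). The exact sign-flip test over samples gave p = 0.125 (two-sided), the smallest possible with 4 samples. Over the pre- and postnatal samples the difference was 0.043 ± 0.063, higher in 4 of 6 samples (exact sign-flip p = 0.219), within the spread between samples.

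As a class, the members had less signal per kb than wide gene-carrying regions and more than narrow regions without a gene. Their median signal per kb was 64.0 and 66.2 in postnatal nicotine, against 68.2 and 64.3 in postnatal saccharin. In the pre- and postnatal samples it was 40.7, 40.0 and 43.0 in nicotine, against 38.4, 40.9 and 40.9 in saccharin. The wide gene-carrying regions stood at 78.0 and 82.2 in postnatal nicotine, against 81.4 and 77.6 in postnatal saccharin.

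**Figure D1:**
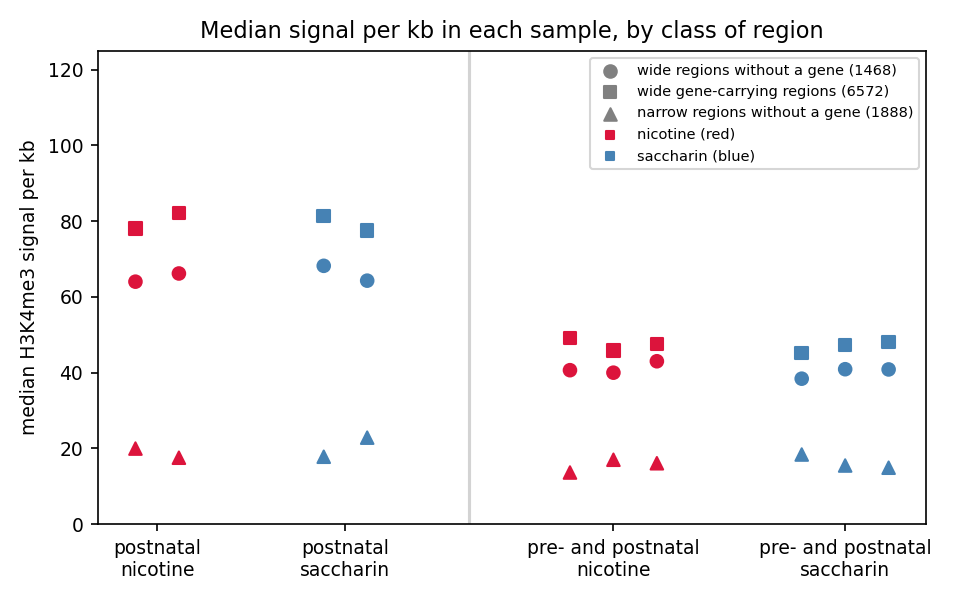
Median H3K4me3 signal per kb (vertical axis) of 3 classes of region in each sample, with nicotine in red to the left of saccharin in blue and the 2 exposures on their own scales. Each mark is 1 sample. In all 10 samples the wide regions without a gene, for example 64.0 to 68.2 postnatally, sit below the wide gene-carrying regions and above the narrow regions without a gene.

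On the log2 scale the members' median signal per kb minus that of wide gene-carrying regions was -0.31 to -0.25 in the 4 postnatal samples, a mean of -0.28 ± 0.024 (SD, lower in 4 of 4), with an exact sign-flip p of 0.125, the smallest 4 samples allow (two-sided). It was also lower in 6 of 6 pre- and postnatal samples, with a mean of -0.22 ± 0.043 (exact sign-flip p = 0.0312, the smallest 6 samples allow). With both classes limited to a width of at least 2000 bp, the difference was smaller in size, -0.077 postnatally and -0.088 in the pre- and postnatal samples, still lower in the members at the same p. Against narrow regions without a gene, the members were higher by 1.76 ± 0.21 postnatally (4 of 4 samples, p = 0.125, exact) and by 1.36 ± 0.18 in the pre- and postnatal samples (6 of 6, p = 0.0312, exact). The rule itself parts members from these narrow regions by width, and the relation of signal per kb to width was not tested. This last difference is therefore a description, and its p-values do not test a trait of the members.

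The members were 1501 to 4705 bp wide with a median of 1977 bp, against 1922 bp in wide gene-carrying regions. They made up 18.3% of wide regions over all chromosomes, with the lowest share on chromosomes 6 and X at 15.5% and the highest on chromosome 17 at 22.7%. The X chromosome held 26 members. Signal of the whole region, not per kb, increased with width, with Pearson's r of 0.563 over the members and 0.490 over wide gene-carrying regions on log2 scales. A wider region has more room for reads, so this relation says nothing about signal per kb. These correlations are across regions of the same samples, and regions are not independent replicates. At the width limit, chr2:128864212-128865713 at 1501 bp averaged 57.7 in postnatal nicotine and 47.7 in postnatal saccharin, and chr2:94017873-94019372, just outside at 1499 bp, averaged 48.5 in nicotine and 51.1 in saccharin. At the start limit, chr11:6525445-6527181 was just inside, at 65.3 in nicotine and 76.4 in saccharin, and chr19:6418215-6419951 just outside, at 80.7 in nicotine and 82.4 in saccharin.

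The widest members were not the densest. The widest, chr3:148649469-148654174, spanned 4705 bp between Ttll7 and Gipc2, with the latrophilin gene Adgrl2 among 5 genes between the flanks, and held 548 and 577 in postnatal nicotine, against 614 and 518 in saccharin. The next, chr5:81448258-81452638, spanned 4380 bp between Igfbp7 and Epha5 with the latrophilin gene Adgrl3 and Tecrl between the flanks. It held 365 and 361 in postnatal nicotine, against 379 and 400 in saccharin, and lay 3391484 bp from the nearest gene-carrying region, the longest distance of any member. The others were chr10:13684032-13688314 beside Hivep2, a zinc finger transcription factor gene, chr17:63228781-63232930 with the ephrin gene Efna5 between its flanks, and chr1:180457190-180461263 with the kinesin gene Kif26b between its flanks. Among these 5 the postnatal signal per kb ran from 56.5 to 120 in nicotine and from 60.9 to 120 in saccharin, beside 276 in nicotine and 256 in saccharin for the member near Zfp746 described below, the densest after those on chromosomes 2 and 12.

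Distance to the nearest gene-carrying region had a median of 49804.5 bp, with quartiles of 20789.25 and 120109.75 bp. The 100 members within 5 kb were weaker than the 1368 farther away in every sample. Their median signal per kb was 40.7 and 41.9 in postnatal nicotine, against 41.7 and 46.1 in postnatal saccharin, and 27.7, 30.1 and 32.7 in pre- and postnatal nicotine, against 28.8, 30.9 and 28.2 in saccharin. Members at 5 kb or more exceeded them by 0.67 ± 0.11 on the log2 scale postnatally (SD, higher in 4 of 4 samples, exact sign-flip p = 0.125, the smallest possible) and by 0.49 ± 0.076 in the pre- and postnatal samples (6 of 6, p = 0.0312, exact, the smallest possible). Of the 100 near members, 10 touched or overlapped a gene-carrying region.

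**Figure D2:**
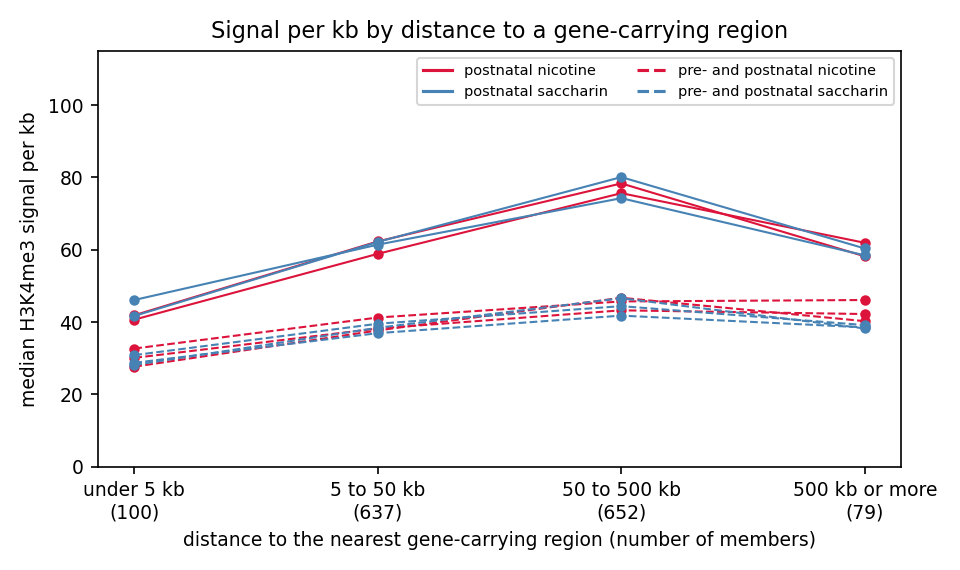
Median H3K4me3 signal per kb (vertical axis) of the members in 4 classes of distance to the nearest gene-carrying region (horizontal axis, with the number of members), 1 line per sample, nicotine in red and saccharin in blue. Every line is lowest under 5 kb, where postnatal samples lie between 40.7 and 46.1.

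The touching members included chr10:80597567-80600376 beside Zbtb7a, a transcriptional repressor gene, at 331 and 345 in postnatal nicotine against 337 and 313 in saccharin, and chr14:22318000-22320093 beside Kat6b, a histone acetyltransferase gene, at 234 and 310 in nicotine against 280 and 243 in saccharin. chr10:111706703-111708576 beside Kcnc2, a fast potassium channel gene of interneurons, was weak, at 51.9 and 53.2 in nicotine against 53.4 and 50.2 in saccharin. In all 3 the groups overlapped. At the other end, 79 members lay 500 kb or more from a gene-carrying region. They were lower than members at 5 to 500 kb in 4 of 4 postnatal samples, with a log2 difference of -0.18 ± 0.069 (exact p = 0.125), whereas the pre- and postnatal difference of -0.034 ± 0.085 was within the spread between samples (higher in 2 of 6, exact p = 0.344). The farthest included chr12:62623456-62626329, at 162 and 150 in nicotine against 161 and 168 in saccharin, with the synaptic adhesion gene Lrfn5 among 4 genes between its flanks.

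By the gene of the nearest region, 47 members lay beside zinc finger genes, 41 beside RIKEN or predicted genes, 30 beside solute carriers, 11 beside developmental transcription factors, 9 beside potassium or calcium channels and 1 beside a cadherin gene. Zinc finger neighbours made 3.20% of members, against 2.60% of gene-carrying regions, and developmental transcription factors 0.749%, against 1.26%. The share of members goes by the nearest region, and 1 gene can be nearest to several members. The share of gene-carrying regions goes by their own gene, with narrow regions and those before the start limit included. These shares are thus unlike measures, and descriptions without a test. Median log2 differences between nicotine and saccharin in the groups with more than 1 member ran from -0.009 to 0.062 postnatally, and their range after exposure before and after birth was -0.058 to 0.12, beside 0.0025 and 0.017 over all members.

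The densest of these beside a zinc finger gene was chr6:47996994-47999515, between Zfp783 and Zfp746, a repressor gene studied in parkinsonism. It held 702 and 688 in postnatal nicotine, against 685 and 605 in saccharin, and 351, 383 and 333 in pre- and postnatal nicotine, against 409, 361 and 327 in saccharin. Nicotine samples were the higher postnatally and mixed with saccharin samples in the other exposure. chr13:69671693-69674711, between Adcy2, an adenylate cyclase gene, and the RNA methyltransferase gene Nsun2, held 705 and 692 in nicotine, against 635 and 650 in saccharin. chr15:85500169-85503215, between Wnt7b and Cdpf1, had the fatty acid receptor gene Ppara and also let-7c-2 and let-7b between its flanks, and held 739 and 708 in nicotine, against 687 and 638 in saccharin. chr4:119958866-119961085, 2745 bp from the region of the forkhead gene Foxo6, held 283 and 295 in nicotine, against 303 and 297 in saccharin.

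The weakest members were ranked by mean postnatal saccharin signal per kb, where they lay below the median narrow region without a gene. This did not hold for all of them in the pre- and postnatal samples. chr3:133993632-133995186, between Tet2, a DNA demethylation enzyme gene, and Tacr3, held 17.3 and 11.7 in postnatal nicotine, against 8.82 and 17.9 in saccharin, or 9.33 ± 2.52 and 8.58 ± 4.11 per kb in nicotine and saccharin. chr6:86421563-86423286, between C87436 and Pcbp1, held 31.6 and 20.4 in nicotine, against 16.0 and 31.1 in saccharin. In both, the samples of 1 group differed as much as the groups did. No member fell below 1 in any sample, and the lowest value was 7.79, so all 1468 entered each fit.

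The member on chromosome 2 at base 98506096 outweighed all others. chr2:98506096-98507822, between Api5 and Rag2 and 2960451 bp from the nearest gene-carrying region, was the only member among 15 regions with a postnatal mean over 3000. It held 255007 and 86188 in postnatal nicotine, against 66588 and 168557 in postnatal saccharin, and 103711, 454925 and 299441 in pre- and postnatal nicotine, against 296300, 170998 and 219927 in pre- and postnatal saccharin. The groups overlapped in both exposures, and samples of 1 group differed severalfold. It took 3.31% to 10.3% of summed signal in the postnatal samples and 7.17% to 19.2% in the pre- and postnatal samples. Its share of the signal in the 15 regions moved less than its level, at 40.8% and 41.8% in postnatal nicotine and 39.1% and 41.0% in postnatal saccharin. limma's standard error for it, 11.8 on the log2 scale postnatally, was set by the trend of variance on signal far beyond the other regions, so no test is read for it.

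chr12:75904524-75906041, the Dbpht2 interval's member between 1700086L19Rik and the potassium channel gene Kcnh5, followed it. It held 1614 and 548 in postnatal nicotine, against 411 and 1101 in saccharin, and 874, 3680 and 2094 in pre- and postnatal nicotine, against 2312, 1318 and 1670 in saccharin. As a percentage of the chromosome 2 member this was 0.633 and 0.635 in postnatal nicotine and 0.617 and 0.653 in postnatal saccharin, and in the pre- and postnatal samples it ran from 0.699 to 0.843. The level moved several-fold between samples of the same group while the ratio stayed within these limits.

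**Figure D3:**
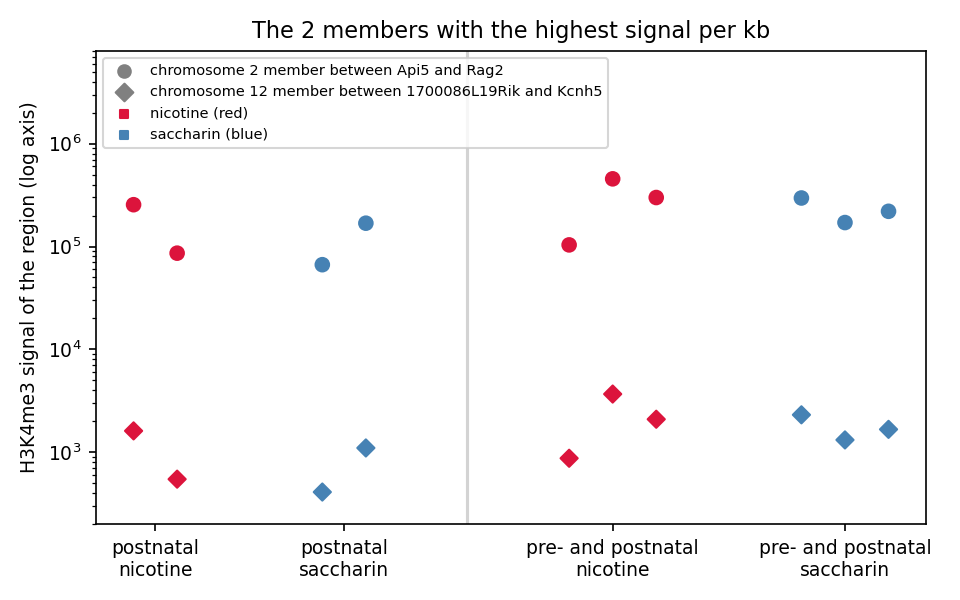
H3K4me3 signal (vertical axis, log scale) of the chromosome 2 member (circles) and the chromosome 12 member (diamonds) in each sample, nicotine in red left of saccharin in blue. The diamonds follow the circles from sample to sample at 0.617% to 0.843% of their height, and both spread widely within each group.

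With the postnatal samples split by their signal in the 15 regions, nicotine libraries 1 and 2 with saccharin libraries 3 and 4 against the rest, 75 members (5.11%) differed at an adjusted p of 0.05 by limma, beside 4.69% of all regions. Of these, 64 were higher where the 15 regions were, beside 3.91% of all regions, and 11 were lower, beside 0.78%. These classes come from the data and are not groups of the study. Among the members, 2 chosen after their values were seen are given here. chr15:74915425-74917777, between the lymphocyte antigen genes Ly6e and Ly6h, held 765 and 241 in postnatal nicotine, against 263 and 514 in saccharin, and 565, 1414 and 936 in pre- and postnatal nicotine, against 1739, 547 and 618 in saccharin. chr2:181664666-181666332, whose nearest gene-carrying region is that of Polr3k, held 222 and 72.9 in postnatal nicotine, against 77.4 and 169 in saccharin. In these 2 members the highest postnatal sample was again nicotine libraries 1 and 2 and the next was saccharin libraries 3 and 4. In the pre- and postnatal samples the chromosome 15 member was highest in saccharin library 1, unlike the chromosome 2 member at base 98506096, which was highest in nicotine library 3. For the typical member the spread between samples was small, with a median SD on the log2 scale of 0.10 in postnatal nicotine, 0.12 in postnatal saccharin, 0.26 in pre- and postnatal nicotine and 0.17 in pre- and postnatal saccharin.

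The members' share of summed signal was 20.4% and 16.4% in postnatal nicotine, against 15.7% and 18.6% in postnatal saccharin, a difference of 1.18 percentage points (exact permutation p = 0.667, two-sided, with 0.333 the smallest possible). Over the pre- and postnatal samples it was 18.1%, 25.6% and 22.6% in nicotine, against 23.5%, 20.2% and 21.7% in saccharin, a difference of 0.319 points (exact permutation p = 0.9, smallest possible 0.1). Both differences were within the spread between samples. The postnatal one was -0.83 without nicotine libraries 1 and 2 and -0.26 without saccharin libraries 1 and 2, and the pre- and postnatal one -1.46 without nicotine library 3 and -0.46 without saccharin library 2. Without the 15 regions over 3000 the share was 13.5% and 13.5% in postnatal nicotine, against 13.6% and 13.5% in saccharin, and the spread nearly vanished, with a difference of -0.0305 points (exact permutation p = 1). The pre- and postnatal share was then 13.5%, 12.9% and 13.2% in nicotine, against 13.1%, 13.3% and 13.1% in saccharin.

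Whether nicotine changed the mark was asked for each member by limma on log2(signal + 1), fitted across all regions with Benjamini-Hochberg adjustment. In the postnatal exposure 0 of 1468 members passed an adjusted p of 0.05, against 0% of the 14873 regions tested. Without adjustment 31 members, 2.11% of them, had p under 0.05, beside 1.89% of all regions. Of these, 13 members were higher in nicotine, beside 0.961% of all regions, and 18 were lower, beside 0.928%. The median member differed by 0.0025 on the log2 scale, and the middle 90% of members lay between -0.29 and 0.21. The median 95% interval reached 0.29 to either side, a 1.23-fold change. Without nicotine libraries 3 and 4, which leaves 1 nicotine sample assumed to vary like the others, 3 members passed, those at chr12:75904524-75906041, chr15:74915425-74917777 and chr2:181664666-181666332 described above, among 31 of all 14881 regions. The unadjusted count was 48 without nicotine libraries 1 and 2, 3.27% of members beside 2.74% of all regions, and 82 without saccharin libraries 1 and 2, 5.59% beside 4.42%.

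With exposure before and after birth 0 members passed as well, against 0% of the 14879 regions tested. Unadjusted p was under 0.05 in 44 members, 3% of them, beside 3.59% of all regions. Of these, 27 were higher in nicotine, beside 1.72% of all regions, and 17 were lower, beside 1.87%. After quantile normalization these counts were 18 higher and 24 lower, the opposite split, together 2.86% of members beside 3.62% of all regions. After median ratio scaling they were 26 higher and 18 lower, together 3.00% beside 3.59%. Postnatally quantile normalization gave 10 higher and 27 lower, the same direction as without it, together 2.52% beside 2.41%. The split by direction over all regions is not given for these alternatives, so their splits are not read as particular to the members. The median member differed by 0.017, and the median 95% interval reached 0.44 to either side, a 1.35-fold change. Without nicotine library 1, 1 member passed, among 17 of all 14881 regions, and the unadjusted count was 153, 10.4% of members beside 11.4% of all regions. That count was 21 without saccharin library 2, 1.43% beside 2.49%, and 26 without saccharin library 3, 1.77% beside 2.37%.

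The nicotine and saccharin samples did not overlap in 428 members postnatally, 29.2% beside 29.1% of all regions. In the pre- and postnatal exposure they did not overlap in 126 members, 8.58% beside 8.95%, of which 87 were higher in nicotine, 5.93% beside 4.49% of all regions, and 39 lower, 2.66% beside 4.46%. The shares without regard to direction are near the background. Members higher in nicotine on average numbered 743 postnatally and 786 in the pre- and postnatal exposure, 50.6% and 53.5%, beside 49.1% and 50.5% of all regions. The pre- and postnatal direction depended on normalization. After quantile normalization the median log2 difference there was -0.020 in members and -0.0063 over all regions, against 0.017 and 0.0027 without it.

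**Figure D4:**
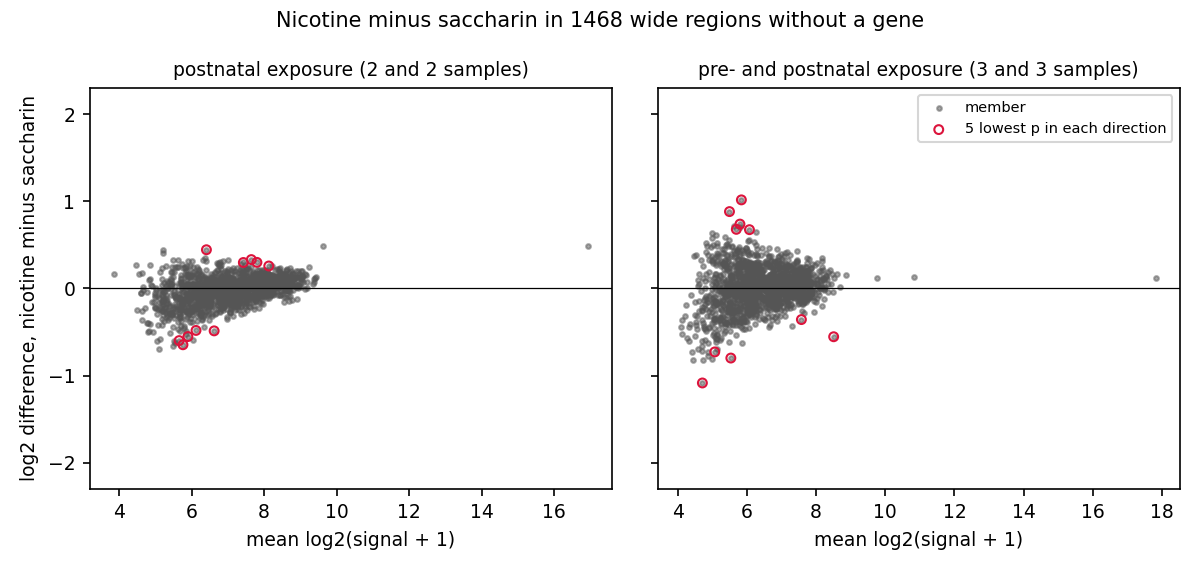
Log2 difference between nicotine and saccharin (vertical axis, nicotine minus saccharin) against mean log2(signal + 1) (horizontal axis) for each of the 1468 members in the 2 exposures, with the 5 lowest p in each direction ringed. The points centre on 0, with medians of 0.0025 and 0.017, and spread more widely at low signal and in the pre- and postnatal exposure.

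The members with the lowest p are described although none passed the adjustment. Of those higher in postnatal nicotine, chr5:133017721-133020118, between the neurodevelopmental gene Auts2 and Rcc1l, held 219 and 229 in nicotine, against 173 and 182 in saccharin. Its log2 difference was 0.33 ± 0.11 (SE, limma adjusted p = 1.00). With exposure before and after birth it held 120, 87.1 and 99.1 in nicotine, against 96.8, 121 and 81.7 in saccharin, and the groups overlapped. chr2:130120178-130122166, between Idh3b, a subunit gene of mitochondrial isocitrate dehydrogenase, and Cpxm1, had the transcription factor gene Ebf4 as the only gene between its flanks and held 238 and 256 in nicotine, against 203 and 197 in saccharin. chr4:48055087-48056857, 7267 bp from the region of Nr4a3, a nuclear receptor gene induced by activity, held 186 and 194 in nicotine, against 153 and 156 in saccharin. These 2 members, with log2 differences of 0.30 each, also overlapped between groups in the pre- and postnatal exposure.

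Those described here as lower in postnatal nicotine were weaker than the higher ones described above. chr16:11202566-11204348, between Zc3h7a and Gspt1 with the nucleolar protein gene Rsl1d1 as the only gene between, held 86.1 and 78.5 in nicotine, against 114 and 117 in saccharin (log2 difference -0.49 ± 0.16, limma adjusted p = 1.00). Its pre- and postnatal values were 69.1, 58.8 and 87.4 in nicotine, against 54.2, 79.6 and 57.8 in saccharin, which overlapped, with a log2 difference of 0.17 in the other direction. chr17:28659326-28660846, between Fkbp5, a co-chaperone gene of the glucocorticoid receptor, and Srpk1, held 45.3 and 39.7 in nicotine, against 61.7 and 72.6 in saccharin. It was also lower in pre- and postnatal nicotine, at 24.6, 14.1 and 30.5, against 40.5, 32.9 and 38.1 in saccharin, without overlap and with log2 differences of -0.65 ± 0.23 and -0.73 ± 0.34 in the 2 exposures (limma adjusted p 1.00 and 0.987). chr9:88221428-88223073, with Nt5e, the gene of an adenosine-producing ectoenzyme, as the only gene between Tbx18 and Snx14, held 41.3 and 38.8 in nicotine, against 65.1 and 57.3 in saccharin. In the pre- and postnatal exposure it held 21.8, 20.3 and 16.7 in nicotine, against 32.3, 26.5 and 40.4 in saccharin, again without overlap (limma adjusted p = 0.987).

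**Figure D5:**
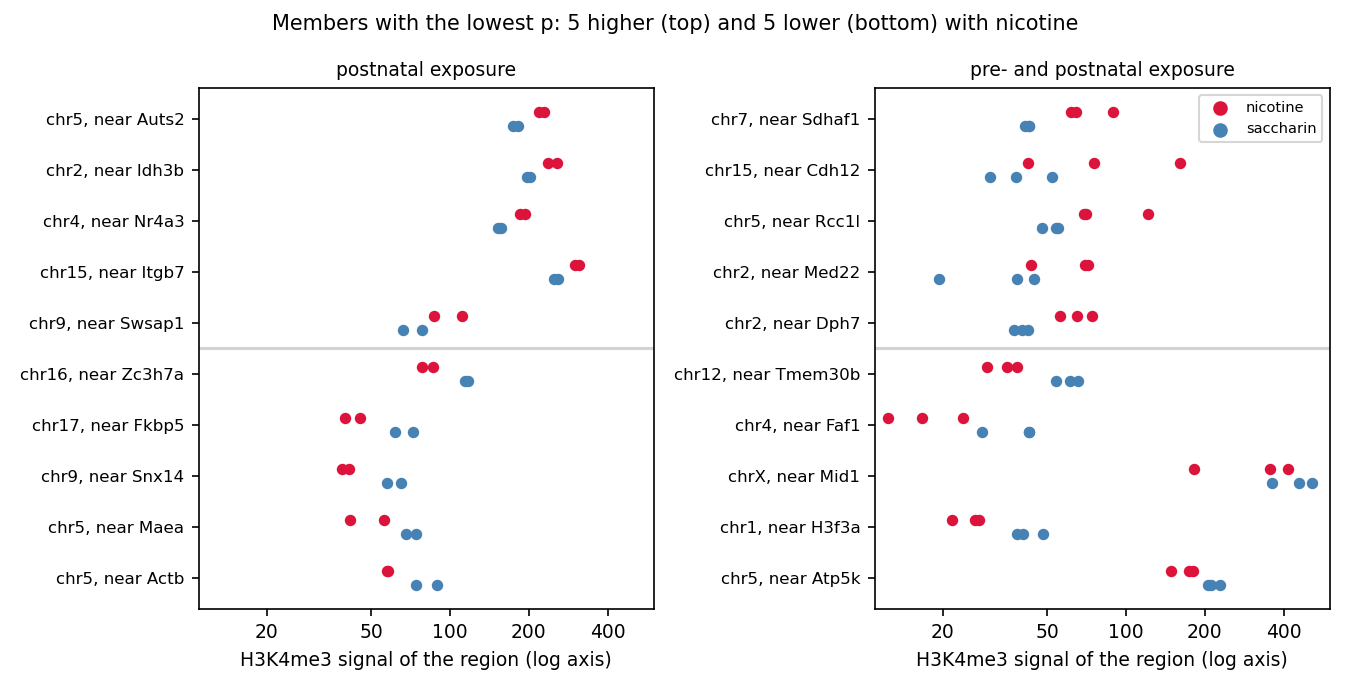
H3K4me3 signal (horizontal axis, log scale) in each sample of the 10 members with the lowest p in each exposure, named by chromosome and the gene of the nearest region, with nicotine in red above saccharin in blue. The 5 upper rows are higher and the 5 lower rows lower in nicotine, for example 219 and 229 against 173 and 182 beside Auts2. No adjusted p was below 0.05.

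Under pre- and postnatal exposure the lowest p belonged to chr12:74685071-74686923, lower in nicotine, between Tmem30b and Hif1a, the hypoxia transcription factor gene. This member had Prkch and LOC115488016 between its flanks and was 37216 bp from the nearest gene-carrying region, that of Tmem30b. It held 35.1, 38.5 and 29.4 in nicotine, against 54.1, 61.2 and 65.7 in saccharin (log2 difference -0.80 ± 0.25, limma adjusted p = 0.987). Postnatally it held 86.1 and 106 in nicotine, against 90.0 and 104 in saccharin, and the groups overlapped. chr7:31147223-31148777, higher in nicotine, lay between Sdhaf1, an assembly factor gene of succinate dehydrogenase, and Aplp1, of the amyloid precursor family. It held 64.4, 61.8 and 89.4 in nicotine, against 42.6, 41.0 and 42.6 in saccharin, and postnatally 74.3 and 65.0 in nicotine, against 82.8 and 76.5 in saccharin. The postnatal nicotine samples were thus the lower ones (unadjusted p = 0.312 by limma).

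chr15:18748343-18749926 was the only member beside a cadherin gene, in the interval between Cdh6 and Cdh12 with Cdh9, Cdh10 and Acot10 between the flanks, and 2294499 bp from the nearest gene-carrying region. These genes encode adhesion molecules of the classical cadherin type, apart from Acot10. It held 42.4, 75.8 and 161 in pre- and postnatal nicotine, against 30.3, 52.3 and 38.2 in saccharin, a difference of 1.02 ± 0.34 on the log2 scale (limma adjusted p = 0.987). Nicotine library 4 was far above the rest, and without it the difference was 0.52 (limma adjusted p = 0.999). Without nicotine library 1 it was 1.47, with an adjusted p of 0.0380. In the postnatal exposure it held 62.2 and 38.4 in nicotine, against 25.9 and 57.6 in saccharin, which overlapped and followed the order of the chromosome 2 member.

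On the X chromosome, chrX:166434524-166436774, 6680 bp from the region of Mid1, a ubiquitin ligase gene that reaches into the pseudoautosomal region in C57BL/6 mice, held 354, 417 and 181 in pre- and postnatal nicotine, against 513, 362 and 459 in saccharin (log2 difference -0.55 ± 0.22, limma adjusted p = 0.987). Without nicotine library 4, the lowest sample, the difference was -0.20. Postnatally it held 547 and 586 in nicotine, against 650 and 375 in saccharin, so it varied within groups as much as between them. The sex of the animals is not given. chr1:182707495-182709024, with the Golgi protein gene Acbd3 as the only gene between Mixl1 and H3f3a, a gene of histone H3.3, held 21.7, 27.4 and 26.5 in nicotine, against 40.6, 38.5 and 48.2 in saccharin. Its postnatal values were 79.8 and 80.5 in nicotine, against 95.1 and 81.8 in saccharin, lower in the same direction with an unadjusted p of 0.437.

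The exposures have separate saccharin samples, so their differences could be set against each other. No member's log2 difference differed between the exposures at an adjusted p of 0.05 by a z test on limma's estimates, against 0% of 14871 regions, with a minimum over members of 1.00. Without adjustment 43 members had p under 0.05, 2.93% beside 3.65% of all regions. Across the 1468 members Pearson's r between the 2 sets of log2 differences was 0.036, and across all regions -0.031, as descriptions over regions that share samples.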

How the data were processed

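H3K4me3 ChIP-seq signal was measured in cerebral cortex of 3-month-old mice. Signal is a read count per region, not whole, that the authors adjusted with edgeR before they deposited it, per the submitters' processing notes, which also name mm9. The sources used here do not give the aligner, the peak caller or any version. The exposures were adjusted as 2 separate tables, and raw depth is unknown.

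The 1468 members, the gene lists and the tests were chosen with earlier results of these data known. Repeated rows without values, 4322 of 19203, were left out. Near-identical postnatal libraries (variance under 1.5 times counting noise) were averaged. All regions with a value of at least 1 in as many samples as the smaller group has were fitted with limma 3.58.1 in R 4.3.3, with a variance trend, on log2(signal + 1), and p-values were adjusted by Benjamini-Hochberg over all regions. Fold changes on this scale understate those of weak regions. The script was tested on simulated data. Shares and medians per sample were compared by exact permutation and exact sign-flip tests over every arrangement, in Python 3.11.15 with numpy 2.4.6. The z test used scipy 1.17.1. Distances run from edge to edge.

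Named members were those with the 5 lowest p per exposure and direction, any with a postnatal mean over 3000, the 10 densest and 5 weakest per kb, the 5 widest, the 5 nearest to and farthest from a gene-carrying region, the 5 most variable in pre- and postnatal saccharin, and examples by neighbouring gene. The members described by microRNA genes or by the genes between their flanks were chosen after values were seen. Alternatives were another pseudocount, no filter, quantile and median ratio scaling, replicate block, all 8 postnatal libraries, the part of the signal held by the 15 strongest regions as a term, and leaving out each sample. Same-numbered samples are not stated to share a litter, batch or day, and no such pairing was assumed. A result on 1 member is not reported here.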

Additional observations from a re-analysis of the deposited data

How the results depend on the processing

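No member was called at an adjusted p of 0.05 in either exposure with a pseudocount of 5, no filter, quantile normalization, median ratio scaling, a replicate block or all 8 postnatal libraries, nor for the difference between exposures with a pseudocount of 5. Leaving out samples gave 0 to 3 called members postnatally and 0 to 1 in the pre- and postnatal exposure. With the class of high or low share of signal in the 15 strongest regions as a term, 1 member was called postnatally, chr12:75904524-75906041. The only single members run under the alternatives were the 20 with the 5 lowest p per exposure and direction. Of their results, 229 stayed on the same side of the threshold in the same direction and none reversed. The member at chr15:18748343-18749926 passed without pre- and postnatal nicotine library 1 at 1.47. These members were chosen by p in the main fit, where none passed. Staying on the same side thus means that they still did not pass, and the count does not measure stability. At chr9:21721830-21723448 the postnatal difference was 0.44 in the main fit. It was 0.27 without nicotine libraries 3 and 4 and 0.62 without nicotine libraries 1 and 2. The replicate block moved the difference at chr15:18748343-18749926 to 0.72 and that at chrX:166434524-166436774 to -0.34. The cause was not tested.

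Without the regions over 3000 the postnatal share difference reversed to -0.0305 points. Leaving out 1 sample each gave -0.827 to 3.19 points postnatally (negative without nicotine libraries 1 and 2 and, at -0.257, without saccharin libraries 1 and 2) and -1.46 to 2.33 in the pre- and postnatal samples. The lower signal per kb of members than of wide gene-carrying regions kept its sign in every alternative run, and leaving out 1 pre- and postnatal sample gave -0.230 to -0.204, with an exact p of 0.0625 that is the smallest 5 samples allow.

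The labels do not say whether replicate numbers pair the samples. Deviations of same-numbered postnatal samples correlated at -0.463, and those of pre- and postnatal libraries 1 and 3 at -0.100 and -0.0854. The postnatal figure is a single value, since with 2 samples per group the deviations mirror each other. With so few samples these correlations cannot decide whether the numbers pair. With the replicate block, 0 members were called in each exposure, beside 1 of all 14873 regions postnatally and 0 of 14879 in the other. Unadjusted p was under 0.05 in 16 members postnatally, 1.09% of them beside 0.928% of all regions. In the other exposure it was under 0.05 in 21, 1.43% beside 1.91%. The postnatal share difference with this block was 1.18. With postnatal numbers crossed, which is the term for high or low share, 1 member was called, among 9 of all 14873 regions, and 101 had an unadjusted p under 0.05, 6.88% of members beside 7.15% of all regions. Shares within the 2 classes and with the replicate block were added after seeing the data, and each gave a share difference of 1.18. Each class, like each postnatal replicate number, holds 1 nicotine and 1 saccharin sample. These share differences therefore could not depart from the main one.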
